A study of Homo sapiens with 6 samples.

Results

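The proteasome is the protease complex that degrades ubiquitin-tagged proteins, and its genes were followed here in breast cancer cells exposed to YW3-56. Genes were taken by symbol, as PSMA, PSMB, PSMC, PSMD, PSME, PSMF or PSMG with a digit, together with POMP, NFE2L1, DDI2 and VCP. The rule found 50 of the 18417 genes tested. Of these, 48 encode subunits, activators, assembly factors or regulators of the proteasome. The other 2, PSMC3IP and PSME3IP1, matched by their letters only and are described apart. PSMC5, PSMD7, PSMD13 and DDI2 were not analysed here.

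Expression was measured on Affymetrix whole-transcript arrays in MDA-MB-231, an established human triple-negative breast cancer line. The vehicle group, DMSO, and the group exposed to YW3-56 (10 µM, 8 h) had 3 arrays each. The labels give no separate time for the vehicle. YW3-56 is known as an inhibitor of peptidylarginine deiminases, the enzymes that turn arginine in proteins into citrulline. Both groups are 1 cell line, and YW3-56 was given at 1 dose and time, so the comparison asks which proteasome transcripts differ after this exposure.

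The proteolytic core, called 20S, is a barrel of alpha rings, which form the gate, and beta rings, which carry the active sites. The 19S cap binds ubiquitin chains, unfolds the substrate with a ring of ATPases and feeds it into the core. Dedicated chaperones put the core and the cap together, and in cells exposed to interferon the immunoproteasome subunits replace the active beta subunits. The transcription factor NFE2L1 is known to raise proteasome genes together when the proteasome is inhibited. It is made at the membrane of the endoplasmic reticulum (ER), pulled out by the ATPase VCP and cut by the protease DDI2.

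Each value is a log2 level after RMA as the authors deposited it, so a difference of 1 is a 2-fold change. They ran from 1.91 to 14.69 over all probe sets, and array medians ran from 7.55 to 7.74. Pearson correlations over genes were 0.990 to 0.997 within groups and 0.980 to 0.985 between them. Arrays carry no read depth, and the 3 arrays per group limit the precision. RMA equalises the arrays, so a shift of every transcript in one direction would not show. Among markers of the line, the mean levels of VIM, CD44, AXL, CAV1, MSN, KRT18 and KRT8 lay between the 94.7 and 99.7 percentiles of genes. Those of PGR, CDH1 and ESR1 lay at the 8.88, 14.1 and 22.4 percentiles. The other low markers GATA3, FOXA1 and ERBB2 lay at the 35.2, 62.4 and 65.5 percentiles. Of the 7 bright markers 2 were lower in YW3-56, CAV1 (-0.43) and KRT18 (-0.27), and of the 6 low ones GATA3 was lower (-0.37) and FOXA1 higher (0.50); their part in the results below was not tested. The leukocyte genes PTPRC, CD3E, CD14, NKG7 and CD68 lay at the 3.34, 14.6, 27.7, 41.9 and 97.5 percentiles. Fibroblast and endothelial genes lay from 13.8 (PECAM1) to 62.3 (COL1A1). Of 5 leukocyte and 6 fibroblast or endothelial markers measured, 0 were called in limma. Brightness differs between probe sets, so these percentiles are a rough guide.

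NFE2L1 was 1.45-fold higher in YW3-56, yet 0 of the 46 core, cap, activator and assembly genes measured was called higher. Of those 46 genes, 6 were called lower, by 1.20-fold to 1.48-fold: PSMD5, PSMG1, PSMA5, PSME3, PSMB8 and PSMB2. The other 40 did not pass, and 36 of these had a log2 fold change within 0.15 of 0. A gene was called at an adjusted p under 0.05 in limma, with Benjamini-Hochberg adjustment over all genes. Over all genes tested, 9.84% were called higher and 11.5% lower. With the regulators included, 1 of 48 members was called higher (2.08%) and 6 lower (12.5%), so the share of falls was near that of all genes. At an unadjusted p under 0.05, for which shares over all genes were not counted, the 46 genes gave 0 rises and 9 falls. With array weights, which called 2647 of all genes higher and 3432 lower, 1 of them, PSMA6, was called higher (0.21, adjusted p = 0.0375). For PSMA6, adjusted p over the 15 alternative settings ran from 0.0375 to 0.665.

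The median log2 fold change of the 48 members was -0.06, against -0.05 over all genes tested. The median SE of a member was 0.074 and that of a gene 0.094, so the error of the typical member was no larger than that of the typical gene. The difference was below 0 for 35 of 48 members (72.9%) and for 62.1% of all genes. The 3 treated arrays all lay below the 3 DMSO arrays for 18 members (37.5%), against 21.4% of all genes. They all lay above for 3 members (6.25%), against 15.5% of all genes. The groups overlapped for the other 27 members, and over all genes 36.9% had groups that did not overlap in one direction or the other. The that lay above were NFE2L1, VCP and PSMA6.

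**Figure D1:**
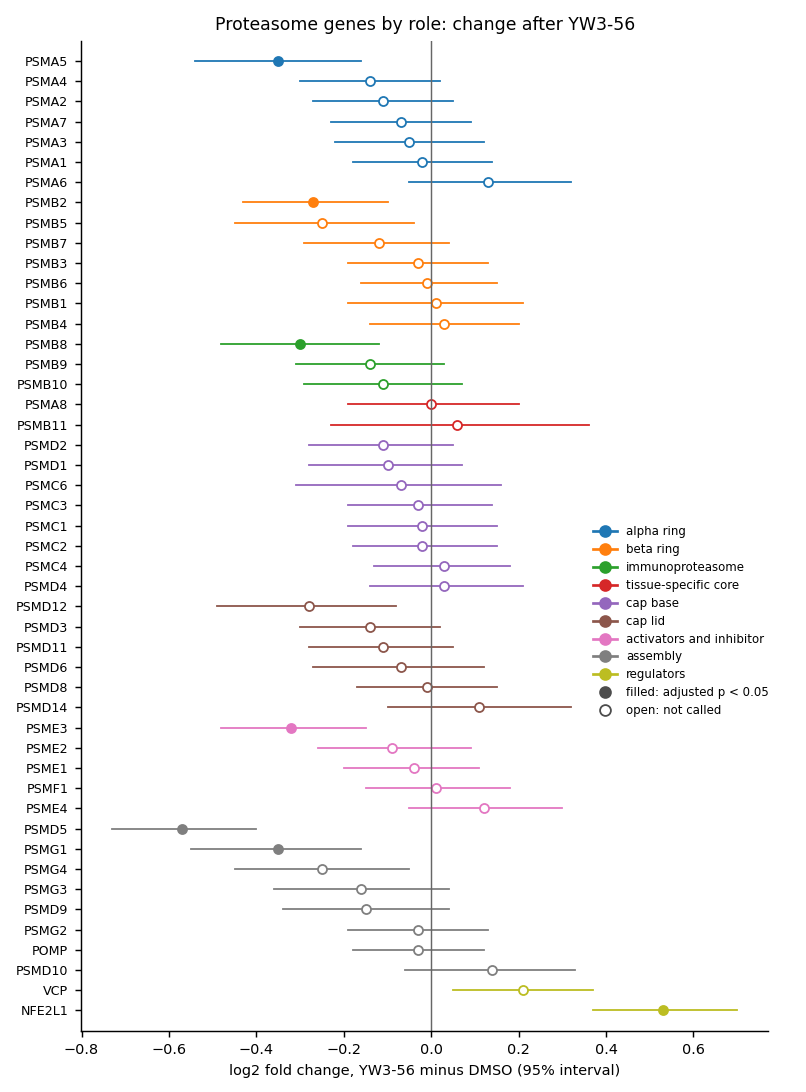
Log2 fold change of each of the 48 members, YW3-56 minus DMSO, with its 95% interval from limma, grouped by role; n = 3 arrays per group. Filled points are the 7 called genes, of which NFE2L1 alone lies above 0.

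**Figure D2:**
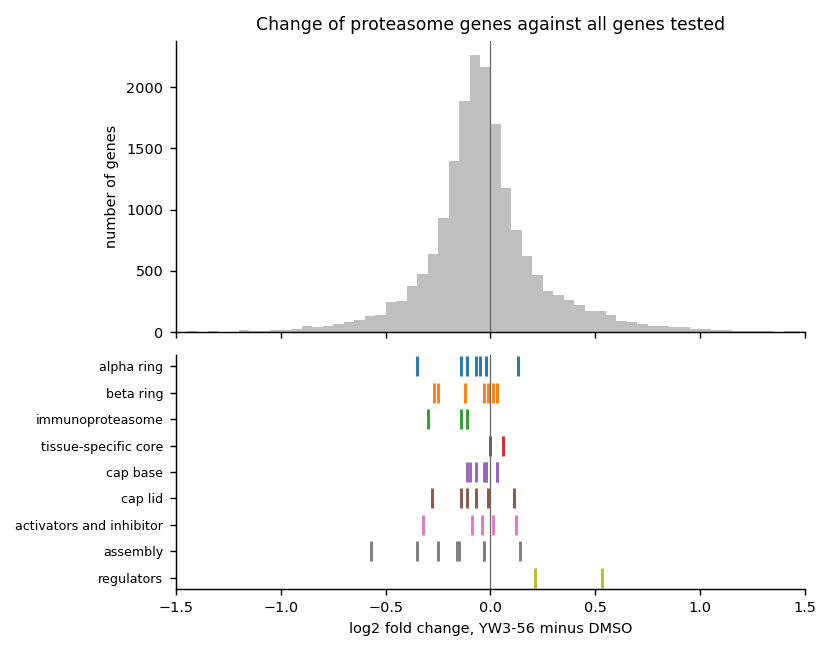
The upper panel is a histogram of log2 fold changes of all 18417 genes tested, without the 64 beyond 1.5 in size, and the lower panel has 1 tick per member in each role. Member ticks crowd just below 0, where the bulk of all genes also lies, and run from -0.57 for PSMD5 to 0.53 for NFE2L1.

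Among the regulators, NFE2L1 measured 10.94, 10.83 and 10.90 in the DMSO arrays and 11.41, 11.39 and 11.47 in the YW3-56 arrays. Each treated array was above each vehicle array by more than the spread within either group. The log2 fold change was 0.53 ± 0.07 (SE, n = 3 per group; limma adjusted p = 0.00157). The call held in 15 of 15 alternative settings, with a change between 0.50 and 0.58 and an adjusted p from 6.5e-05 to 0.0131. VCP measured 12.07, 12.04 and 11.98 in DMSO and 12.25, 12.20 and 12.28 in YW3-56. Its groups did not overlap either, but the difference of 0.21 ± 0.07 did not pass (limma adjusted p = 0.0654). It passed in 5 of 15 alternative settings, among them a second quantile normalization (0.25, adjusted p = 0.0261), and the adjusted p ran from 0.00594 to 0.216 over the 15.

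**Figure D3:**
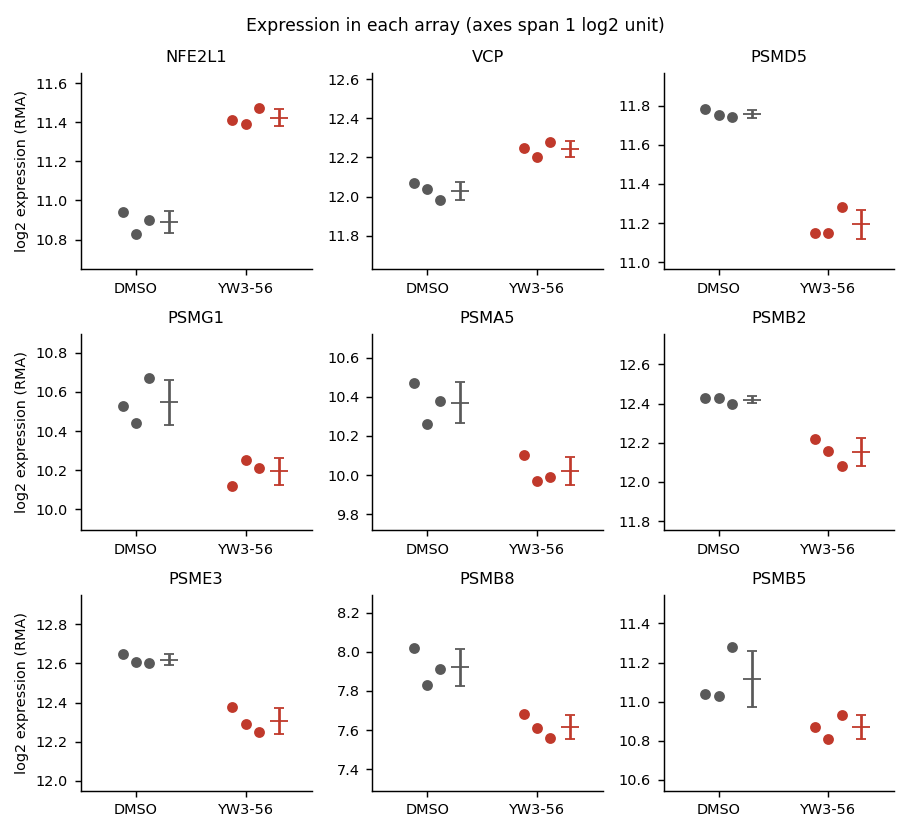
Log2 expression of 9 members in each array, with the mean and SD of the 3 arrays at the right of each group; each axis spans 1 log2 unit. NFE2L1 and VCP have their treated arrays above the vehicle arrays, and the other 7 genes have theirs below.

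The start region of NFE2L1 is shown because it was the member called higher, and the CCAAT search was added after the window was seen. The window covers 250 bases before the start site and 50 after it, at chr17:48048109-48048408 on the plus strand (RefSeq, GRCh38.p14). Capitals mark the 5 matches to CCAAT on either strand, a box found in many promoters. At least 1 match occurred in 34.6% of all 35116 windows of this length. By gene the share was 39.7% of all genes with windows and 47.6% of member genes with windows. The window held 0 matches to TGACNNNGC, the core of the antioxidant response element to which NFE2L1 and its relative NFE2L2 are known to bind. RefSeq lists another start for this gene that is not shown. The 2 windows were ranked by their number of CCAAT matches and the first was taken, so the 5 matches come from a selected window. The share of windows with 5 matches was not counted.
NFE2L1: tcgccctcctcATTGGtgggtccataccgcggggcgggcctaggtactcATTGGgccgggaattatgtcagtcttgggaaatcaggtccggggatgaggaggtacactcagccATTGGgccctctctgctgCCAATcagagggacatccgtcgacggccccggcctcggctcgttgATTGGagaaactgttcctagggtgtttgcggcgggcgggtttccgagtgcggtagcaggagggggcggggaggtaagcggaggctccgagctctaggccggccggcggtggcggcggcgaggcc

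Genes that handle NFE2L1 or work beside it were followed as a list, drawn up with earlier results of these data known. Of 13 measured members, 7 were called higher, 2 lower and 4 neither, and the median difference was 0.42. The shares were 53.8% higher and 15.4% lower, against 9.84% and 11.5% of all genes tested. SEL1L, a scaffold of the ER ubiquitin ligase that holds NFE2L1 low, measured 10.10, 9.94 and 10.20 in DMSO and 11.41, 11.07 and 11.10 in YW3-56 (1.12 ± 0.11; limma adjusted p = 5.2e-04). SYVN1, the ligase itself, rose by 0.86 ± 0.08 (adjusted p = 3.1e-04). Both belong to general ER degradation as well. MAFG, a small MAF protein that pairs with NFE2L1 on DNA, measured 10.04, 9.87 and 10.05 in DMSO and 10.99, 10.97 and 11.03 in YW3-56. That was a 2.02-fold difference (1.01 ± 0.08; adjusted p = 1.8e-04). These genes kept their calls in 15 of 15 alternative settings.

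The other 4 rises in that list were those of MAFF (0.52), a further small MAF, NFE2L2 (0.49), the relative that answers oxidants, BACH1 (0.49), a repressor at the same elements, and FBXW7 (0.42), a ubiquitin ligase subunit. NFE2L3, another relative (-0.44), and the cofactor HCFC1 (-0.42) were lower. NGLY1, which removes sugars from NFE2L1 during its maturation, did not pass (-0.11 ± 0.10; adjusted p = 0.491). The FBXW7 call was lost when any array but DMSO replicate 1 was left out, with adjusted p of 0.148 and 0.126 without DMSO replicates 2 and 3 and 0.151, 0.085 and 0.103 without YW3-56 replicates 1, 2 and 3. That of NFE2L3 was lost without DMSO replicate 3 (0.0613) and without YW3-56 replicates 1 (0.0518), 2 (0.0881) or 3 (0.136). HCFC1 was lost without DMSO replicate 2 (0.086) and without YW3-56 replicates 2 (0.11) or 3 (0.126). Centring of each array also ended the calls of FBXW7 (0.0657), NFE2L3 (0.0691) and HCFC1 (0.0746), as did a test on each gene's own variance (0.172, 0.142 and 0.125), and that of FBXW7 was lost after a second quantile normalization (0.0688). With replicate number as a block these calls held, with adjusted p of 0.00885 for FBXW7, 0.0141 for NFE2L3 and 0.00712 for HCFC1. BACH1 lost its call on its own variance only (0.0603). Genes called in this list beyond SEL1L, MAFG and SYVN1 were named after their values were seen.

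Among 19 measured cofactors of VCP, which direct that ATPase to its substrates, 3 were called higher, 1 lower and 15 did not pass (median 0.08). As shares, 15.8% were higher and 5.26% lower, against 9.84% and 11.5% of all genes tested. UBXN7, an adaptor to ubiquitin ligases, was 1.55-fold higher (0.63 ± 0.07; limma adjusted p = 8.9e-04). SELENOS, a selenoprotein that recruits VCP to the ER membrane, was 1.37-fold higher (0.46 ± 0.08; adjusted p = 0.0058). UBXN4, another ER-bound adaptor, rose by 0.27 and lost its call without DMSO replicate 2 (adjusted p = 0.129) or YW3-56 replicates 1, 2 or 3 (0.0974, 0.0844 and 0.113). SVIP, a small inhibitor of ER degradation, fell by 0.27. Its call was lost without DMSO replicates 2 or 3 (0.053 and 0.0761), without YW3-56 replicates 1, 2 or 3 (0.0964, 0.0932 and 0.0811) and after centring (0.113).

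**Figure D4:**
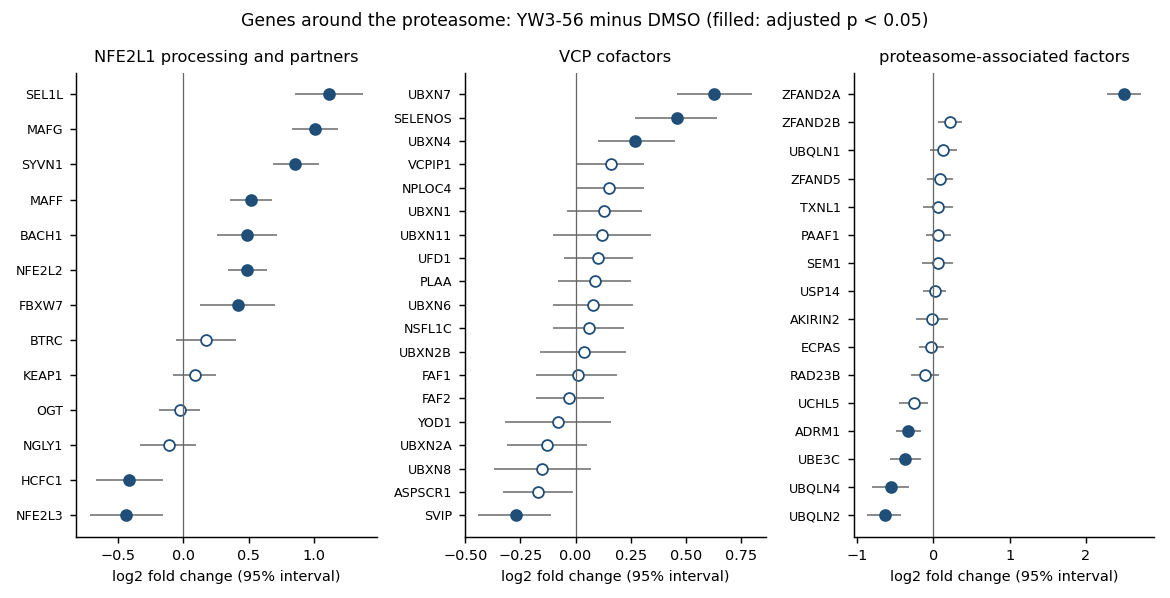
Log2 fold change, YW3-56 minus DMSO, with 95% intervals for 13 genes around NFE2L1, 19 VCP cofactors and 16 proteasome-associated factors; filled points are called genes, and the 3 panels have different scales. In the first panel 7 of 13 genes are called above 0 (53.8%, against 9.84% of all genes tested), and in the third ZFAND2A stands alone at 2.50.

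The 20S core gave 0 rises, 2 falls and 12 uncalled genes among 14 measured (median -0.06). The falls were 14.3% of these genes, near the 11.5% of all genes tested, of which 9.84% were called higher. At an unadjusted p under 0.05 it gave 0 rises and the falls of PSMA5, PSMB2 and PSMB5, with no share over all genes to compare. PSMA6 was the one core gene called higher in any alternative. In the alpha ring, PSMA5 measured 10.47, 10.26 and 10.38 in DMSO and 10.10, 9.97 and 9.99 in YW3-56. The groups were separate, and the difference was -0.35 ± 0.08 (limma adjusted p = 0.019). The call was lost without YW3-56 replicate 2 (adjusted p = 0.0782) or 3 (0.0825), after centring of each array (0.0711) and when each gene's own variance was used, hereafter the per-gene test (0.0528), and over 15 alternatives adjusted p ran from 0.00518 to 0.0825. Of the 6 other alpha subunits, PSMA4 (-0.14), PSMA2 (-0.11), PSMA7 (-0.07), PSMA3 (-0.05) and PSMA1 (-0.02) had negative differences and PSMA6 a positive one (0.13), and none passed. PSMA1 lay on the other side of 0 after a second quantile normalization (0.03), so its sign is not settled.

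In the beta ring PSMB2, a structural subunit, measured 12.43, 12.43 and 12.40 in DMSO and 12.22, 12.16 and 12.08 in YW3-56. The vehicle arrays had an SD of 0.02, and each treated array lay below them (-0.27 ± 0.07; limma adjusted p = 0.0303). The call was lost without DMSO replicates 2 (0.102) or 3 (0.0564), without YW3-56 replicates 2 (0.092) or 3 (0.136) and after centring (0.136), and adjusted p ran from 0.00174 to 0.136 over 15 alternatives. The catalytic subunits were not called. PSMB5, which carries the chymotrypsin-like activity that most proteasome inhibitors block, measured 11.04, 11.03 and 11.28 in DMSO and 10.87, 10.81 and 10.93 in YW3-56. Its difference of -0.25 ± 0.09 did not pass (adjusted p = 0.093) but passed with replicate number as a block (adjusted p = 0.045), and over 15 alternatives adjusted p ran from 0.0324 to 0.248.

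PSMB7, the trypsin-like subunit, measured 11.82, 11.73 and 11.85 in DMSO and 11.66, 11.64 and 11.72 in YW3-56. The treated arrays were all slightly below the vehicle arrays, and the difference was -0.12 ± 0.07 (limma adjusted p = 0.301). PSMB6, the caspase-like subunit, measured 12.66, 12.67 and 12.74 in DMSO and 12.66, 12.68 and 12.71 in YW3-56. These groups overlapped fully (-0.01 ± 0.07; adjusted p = 0.969), with a 95% interval from -0.16 to 0.15. PSMB3 (-0.03), PSMB1 (0.01) and PSMB4 (0.03) did not pass, and the signs of PSMB3, PSMB6, PSMB1 and PSMB4 changed in other settings.

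The immunoproteasome subunits PSMB8, PSMB9 and PSMB10 stand in for PSMB5, PSMB6 and PSMB7. PSMB8 measured 8.02, 7.83 and 7.91 in DMSO and 7.68, 7.61 and 7.56 in YW3-56, a difference of -0.30 ± 0.08 (limma adjusted p = 0.0289). All treated arrays were below all vehicle arrays. PSMB9 measured 8.09, 7.93 and 8.10 in DMSO and 7.89, 7.90 and 7.90 in YW3-56 (-0.14 ± 0.08; adjusted p = 0.253). PSMB10 measured 8.14, 8.01 and 8.18 in DMSO and 7.98, 8.06 and 7.97 in YW3-56 (-0.11 ± 0.08; adjusted p = 0.395), and its groups overlapped. The array carries 3 probe sets for PSMB8 and 3 for PSMB9 with identical values, which count as 1 measurement each. The PSMB8 call held in 5 of 14 alternatives, with adjusted p from 0.0142 to 0.124. It was lost without DMSO replicates 1 (0.0502) or 3 (0.0603), without YW3-56 replicates 1 (0.051), 2 (0.0929) or 3 (0.124), after a second quantile normalization (0.0757) or centring (0.117), with a trended prior (0.0535) and in the per-gene test (0.0569).

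Interferon and antigen presentation genes were read beside these subunits. Of 14 measured, 1 was called higher, 1 lower and 12 did not pass (median -0.01). That was 7.14% in each direction, against 9.84% higher and 11.5% lower over all genes tested. TAP2, a subunit of the peptide transporter that supplies antigen presentation, measured 10.26, 9.92 and 10.04 in DMSO and 9.81, 9.42 and 9.59 in YW3-56 (-0.46 ± 0.12; limma adjusted p = 0.0309). Its call was lost without DMSO replicate 3 (0.0603), without YW3-56 replicates 2 (0.109) or 3 (0.106), after centring (0.0627) and in the per-gene test (0.139). It held with replicate number as a block (adjusted p = 0.00386). TAP1, the other subunit, did not pass (-0.05 ± 0.15; adjusted p = 0.871). IRF9, a subunit of the interferon-activated factor, rose by 0.52 ± 0.08 (adjusted p = 0.00308), while the interferon-induced genes IFIT2 (0.28), MX1 (-0.27), ISG15 (-0.13), IFIT1 (-0.05) and IFIT3 (0.03) did not pass. NLRC5, an activator of antigen presentation genes, had all treated arrays below the vehicle arrays and missed the threshold (-0.25, adjusted p = 0.0541). It passed with replicate number as a block (adjusted p = 0.0425), and over 14 alternatives adjusted p ran from 0.0122 to 0.209. The tissue-specific core genes PSMA8 of the testis (0.00 ± 0.08; adjusted p = 0.993) and PSMB11 of the thymus (0.06 ± 0.13; adjusted p = 0.812) were dim. PSMB11 measured 5.61, 5.89 and 5.99 in DMSO and 5.68, 6.03 and 5.96 in YW3-56, so the groups overlapped.

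The 19S cap gave 0 rises and 0 falls in limma (median -0.05), against 9.84% and 11.5% of all genes tested. These counts cover the 14 measured subunits that the symbol rule found. ADRM1, a ubiquitin receptor of the cap whose symbol lies outside that rule, was called lower (-0.33, limma adjusted p = 0.0105). It is counted with the proteasome-associated factors below. At an unadjusted p under 0.05 these 14 gave 0 rises and 1 fall, that of PSMD12, again with no share over all genes to compare. The differences ran from -0.11 to 0.03 in the base, where PSMD2 measured 11.70, 11.68 and 11.62 in DMSO and 11.57, 11.50 and 11.58 in YW3-56. PSMD2 is the scaffold that docks ubiquitin shuttles (-0.11 ± 0.07; adjusted p = 0.33), and its treated arrays lay just below the vehicle arrays. The other base scaffold, PSMD1, gave -0.10, and the ubiquitin receptor PSMD4 gave 0.03. The ATPases PSMC6 (-0.07), PSMC3 (-0.03), PSMC1 (-0.02), PSMC2 (-0.02) and PSMC4 (0.03) did not pass. Each of these 5 changed sign in at least 1 other setting, PSMC4 to -0.00 without YW3-56 replicate 3 and the others to a positive difference. PSMC1 and PSMC6 each had 2 probe sets, which gave -0.02 and -0.02 for PSMC1 and -0.07 and -0.04 for PSMC6.

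In the lid, PSMD12 measured 10.38, 10.25 and 10.22 in DMSO and 10.12, 9.88 and 10.01 in YW3-56. The treated arrays were all lower, and the difference of -0.28 ± 0.09 missed the threshold (limma adjusted p = 0.0576). It passed with replicate number as a block (adjusted p = 0.0268) and in 5 of 15 alternatives in all, with adjusted p from 0.0188 to 0.195. PSMD14, the enzyme that takes ubiquitin chains off the substrate, measured 11.34, 11.38 and 11.56 in DMSO and 11.43, 11.55 and 11.64 in YW3-56. Its groups overlapped, and the difference was 0.11 ± 0.09 (adjusted p = 0.477). PSMD3 (-0.14), PSMD11 (-0.11), PSMD6 (-0.07) and PSMD8 (-0.01) did not pass. Over the 28 core and cap genes, the highest upper bound of a 95% interval was 0.32 (1.25-fold, PSMD14). The lowest lower bound was -0.54, for PSMA5.

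**Figure D5:**
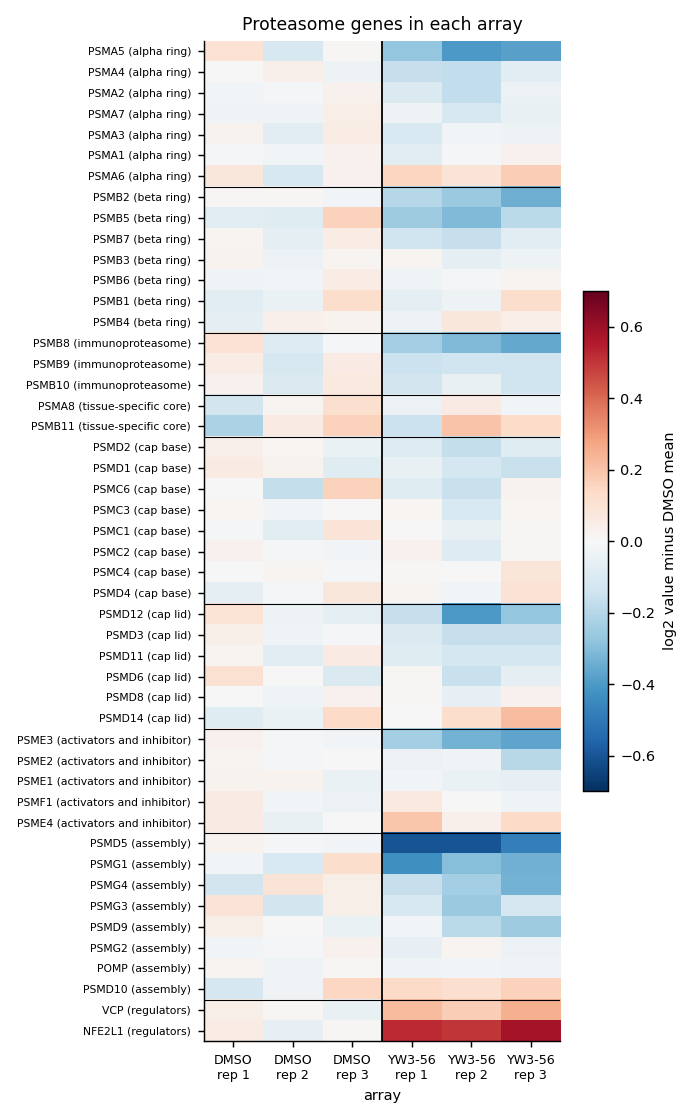
Log2 value of each of the 48 members in each of the 6 arrays minus that gene's DMSO mean, in rows ordered by role; red is higher and blue lower, on a scale from -0.7 to 0.7. The rows of NFE2L1 and PSMD5 are uniform over the 3 treated arrays, and the cap base rows stay pale in both groups.

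Among the activators and the inhibitor, 1 of 5 genes was called lower and 0 higher (median -0.04). Over all genes tested 11.5% were called lower and 9.84% higher, and 5 genes are few to compare with those shares. PSME3, the nuclear activator PA28 gamma, measured 12.65, 12.61 and 12.60 in DMSO and 12.38, 12.29 and 12.25 in YW3-56. The vehicle arrays were close together and the treated arrays all lower (-0.32 ± 0.07; limma adjusted p = 0.0155). The call was lost without DMSO replicate 2 (0.0555), without YW3-56 replicates 2 (0.0642) or 3 (0.0784) and after centring (0.0746), and over 15 alternatives adjusted p ran from 5.5e-04 to 0.0784. PSME1 (-0.04) and PSME2 (-0.09), which form the interferon-inducible activator PA28, did not pass. Neither did PSME4, the activator PA200 (0.12), nor PSMF1, the inhibitor PI31 (0.01).

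The assembly factors held the largest fall. PSMD5, a chaperone that holds the ATPases of the cap base during assembly, measured 11.78, 11.75 and 11.74 in DMSO and 11.15, 11.15 and 11.28 in YW3-56. The gap between the groups was several times the spread within either, and the level was 1.48-fold lower (-0.57 ± 0.07; limma adjusted p = 0.00128). The call held in 15 of 15 alternatives, with a change between -0.61 and -0.53 and an adjusted p from 4.0e-05 to 0.0106. PSMG1, a chaperone of alpha ring assembly, measured 10.53, 10.44 and 10.67 in DMSO and 10.12, 10.25 and 10.21 in YW3-56 (-0.35 ± 0.08; adjusted p = 0.0192). Its call was lost without DMSO replicate 3 (0.0513), without YW3-56 replicates 1 (0.07) or 3 (0.0695) and in the per-gene test (0.0574), and adjusted p ran from 0.00471 to 0.07 over the 15.

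Of the 8 assembly factors 2 were called lower, 0 higher and 6 did not pass, with a median of -0.16. Over all genes tested 11.5% were called lower and 9.84% higher, and 8 genes are few to compare with those shares. PSMG2, the partner of PSMG1, did not pass (-0.03 ± 0.07; limma adjusted p = 0.837), nor did the other alpha ring chaperones PSMG3 (-0.16) and PSMG4 (-0.25). PSMG4 was called lower without DMSO replicate 1 (-0.31, adjusted p = 0.027) and with array weights (-0.34, adjusted p = 0.00539), and adjusted p ran from 0.00539 to 0.281 over 14 alternatives. POMP, which matures the beta ring, measured 12.46, 12.41 and 12.45 in DMSO and 12.41, 12.42 and 12.41 in YW3-56 (-0.03 ± 0.07; adjusted p = 0.831). The other base chaperones did not follow PSMD5 past the threshold, with PSMD9 at -0.15 and PSMD10 at 0.14. The difference between PSMD5 and these genes was not tested.

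Start regions of the members, called or not, were searched on both strands for the element that NFE2L1 is known to bind. Windows of 300 bases were found in RefSeq for 42 of the 48 members. TGACNNNGC occurred in 15 of these 42 genes (35.7%) and in 16.1% of all 27305 genes with windows, and per window in 29.4% of 51 and 13.3% of 35116. The looser TGANNNNGC, which includes every match to the first, occurred in 27 genes (64.3%) and in 47.1% of all genes. Base composition was not matched in these shares. Of the 6 genes called lower, 2 held the stricter motif, PSMD5 and PSMG1, and 5 the looser one. A match to these letters is a description of the sequence and does not show binding.

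Below are the windows of 4 of the 6 genes called lower, from 250 bases before the start to 50 after it (RefSeq, GRCh38.p14). Capitals mark TGANNNNGC matches on either strand. PSME3, the called gene without such a match, and PSMB8, which has a match, are not shown, so every window below holds the motif. PSMD5 lies at chr9:120842873-120843172, PSMA5 at chr1:109426399-109426698, PSMG1 at chr21:39183402-39183701 and PSMB2 at chr1:35641477-35641776, all on the minus strand. PSMD5 and PSMG1 have 3 matches each, of which 1 each is TGACNNNGC, while PSMA5 has 5 and PSMB2 has 1.
PSMD5: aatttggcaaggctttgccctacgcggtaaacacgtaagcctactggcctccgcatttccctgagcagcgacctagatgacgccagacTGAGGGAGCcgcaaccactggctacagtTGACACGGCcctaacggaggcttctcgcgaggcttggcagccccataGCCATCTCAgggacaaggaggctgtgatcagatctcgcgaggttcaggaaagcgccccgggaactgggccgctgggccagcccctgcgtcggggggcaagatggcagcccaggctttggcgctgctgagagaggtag
PSMA5: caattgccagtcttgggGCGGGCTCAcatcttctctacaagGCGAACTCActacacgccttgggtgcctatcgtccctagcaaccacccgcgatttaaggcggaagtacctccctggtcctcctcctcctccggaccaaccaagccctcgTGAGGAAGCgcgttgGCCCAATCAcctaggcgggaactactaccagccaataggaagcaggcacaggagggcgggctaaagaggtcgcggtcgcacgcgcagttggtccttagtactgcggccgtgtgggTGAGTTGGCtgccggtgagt
PSMG1: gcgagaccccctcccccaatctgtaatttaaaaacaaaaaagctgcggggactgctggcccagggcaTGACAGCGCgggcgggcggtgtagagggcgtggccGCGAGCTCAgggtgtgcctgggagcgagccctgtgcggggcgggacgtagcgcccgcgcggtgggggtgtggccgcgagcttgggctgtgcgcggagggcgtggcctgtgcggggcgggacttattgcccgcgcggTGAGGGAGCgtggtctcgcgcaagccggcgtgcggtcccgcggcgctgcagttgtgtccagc
PSMB2: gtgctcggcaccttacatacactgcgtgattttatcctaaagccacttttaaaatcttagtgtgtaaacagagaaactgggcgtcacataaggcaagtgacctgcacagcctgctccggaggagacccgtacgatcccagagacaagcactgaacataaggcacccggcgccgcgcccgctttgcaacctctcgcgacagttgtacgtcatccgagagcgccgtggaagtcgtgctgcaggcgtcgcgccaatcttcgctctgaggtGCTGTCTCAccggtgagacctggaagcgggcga

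Factors that work on the proteasome without being counted among its subunits here were also listed. Of 16 measured, 1 was called higher, 4 lower and 11 did not pass, and the median of -0.00 lay beside a rise of 2.50 ± 0.10 for ZFAND2A, an arsenite-inducible partner of the proteasome (limma adjusted p = 9.3e-06). The shares were 6.25% higher and 25% lower, against 9.84% and 11.5% of all genes tested. UBQLN2, a shuttle that carries ubiquitinated proteins to the cap, measured 11.26, 11.10 and 11.22 in DMSO and 10.74, 10.44 and 10.47 in YW3-56. It was 1.56-fold lower (-0.64 ± 0.10; limma adjusted p = 0.00282) and kept its call in 15 of 15 alternatives. UBQLN4, a related shuttle, was 1.48-fold lower (-0.56 ± 0.11; adjusted p = 0.00694) and lost its call in the per-gene test (0.0553). UBQLN1 did not pass (0.13). ZFAND2B, a relative of ZFAND2A, missed the threshold (0.22, adjusted p = 0.0546) and passed with replicate number as a block (0.0496), and over 15 alternatives adjusted p ran from 0.0128 to 0.185. ADRM1, a ubiquitin receptor of the cap, fell by 0.33 and UBE3C, a ligase that acts at the proteasome, by 0.37. The ADRM1 call was lost without YW3-56 replicate 3 (0.0532). That of UBE3C was lost without DMSO replicate 2 (0.0608), YW3-56 replicate 2 (0.0829) or 3 (0.0947), after centring (0.0753) and in the per-gene test (0.0696). It held with replicate number as a block (adjusted p = 0.00857).

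On the side of ubiquitin itself 4 genes were measured, of which 1 was called higher and 1 lower (median -0.03). Over all genes tested 9.84% were called higher and 11.5% lower, and 4 genes are too few to compare with those shares. UBB, one of the stress-inducible polyubiquitin genes, measured 13.85, 13.77 and 13.89 in DMSO and 14.20, 14.11 and 14.20 in YW3-56. It was 1.26-fold higher (0.33 ± 0.07; limma adjusted p = 0.014), and the call was lost without DMSO replicate 2 (0.0657) or YW3-56 replicate 3 (0.0691). UBA6, a ubiquitin-activating enzyme, fell by 0.25 (adjusted p = 0.0389). Its call was lost when any 1 array was left out, with adjusted p from 0.06 to 0.125, and after centring (0.159). UBA1, the main activating enzyme, did not pass (-0.04).

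The 2 genes that matched the symbol rule by letters only are no proteasome genes. PSMC3IP, a meiotic recombination factor, differed by 0.19 ± 0.09 (limma adjusted p = 0.197) and PSME3IP1, a binding partner of PSME3, by 0.09 ± 0.08 (adjusted p = 0.544). In these bulk RNA samples, less RNA per cell and fewer cells with the RNA cannot be told apart, and protein levels and proteasome activity were not measured.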

How the data were processed

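RNA from 6 cultures was hybridised to 1 array each. The authors deposited log2 values for 33297 probe sets, made with RMA in affy per the submitters' processing notes, which name no version. Gene symbols came from the array's platform annotation, which can be old: 19460 had a single symbol, 1754 several and 12083 none. Only those with a single symbol were used, and the brightest by mean over the 6 arrays stood for a gene, for 18417 genes in all.

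The groups were compared in limma 3.58.1 (R 4.3.3; lmFit and eBayes, group only, two-sided, Benjamini-Hochberg adjustment over all genes). The fit had 4 residual and 4.17 prior degrees of freedom. It was also run on simulated data with independent arrays and planted changes larger than that of any member. That run does not show how well changes of the members' size are found. Whether equal replicate numbers pair the arrays was checked. Deviations from group means correlated over genes at 0.539, 0.370 and 0.102 for arrays numbered 1, 2 and 3, each over 0.1, so the block was run as an alternative. It is given where it changes a call, and also for FBXW7, NFE2L3, HCFC1, TAP2 and UBE3C. However, YW3-56 replicate 2 correlated better with DMSO replicate 3 (0.416).

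The members and lists were chosen with earlier results of these data known. Values in every array are given for a fixed set of regulators and catalytic or immunoproteasome subunits and for up to 3 called genes, or else the largest change, per role. The array weights were estimated gene by gene, because the default method did not converge. Of 104 list entries 90 were measured. Promoter windows came from RefSeq (GRCh38.p14).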

Additional observations from a re-analysis of the deposited data

How the results depend on the processing

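NFE2L1 and PSMD5 kept their calls under each of the 15 alternatives, and each other called member lost its call in at least 4. The number of members called lower was 6 as reported, 2 after centring of each array and 3 in the per-gene test, and it ran from 1 to 6 when 1 array was left out. The single fall without YW3-56 replicate 3 was PSMD5. The number called higher was 1 as reported and when any array was left out. It was 2 after a second quantile normalization, with only genes at or above the median gene and with a prior made trended and robust, in the per-gene test, and 3 with array weights, which gave DMSO replicate 2 a weight of 2.94 and DMSO replicate 1 one of 0.33. With array weights 8 members were called lower. With the replicate block, 1 member was called higher and 8 lower, and it changed the calls of PSMB5 and PSMD12 among members and of NLRC5 and ZFAND2B among the listed pathway and marker genes, and no others of these. Counts over all genes were 1812 higher and 2121 lower, 1691 and 1432 after centring, 2114 and 2025 after the second quantile normalization, 1299 and 1547 in the per-gene test and 2647 and 3432 with array weights, over 1.5 times as many in all as reported. With the replicate block they were 2115 and 2661, with the trended and robust prior 2017 and 2506, and among genes at or above the median gene 1804 and 2356. When 1 array was left out, they ran from 1158 to 2084 higher and from 1206 to 2605 lower. Both were lowest without YW3-56 replicate 3, so calls became fewer over all genes there too. The cause of these differences was not tested.

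The median change of activators and inhibitor moved to -0.01 with the second quantile normalization and was also -0.01 after centring. That of the immunoproteasome moved to -0.07 with array weights, under which the core was at -0.03 and the cap at -0.01. Both scalings also put the core at -0.03 and the cap at -0.02. When 1 array was left out, medians ran from -0.08 to -0.03 for the core, -0.06 to -0.01 for the cap, -0.19 to -0.11 for the immunoproteasome, -0.07 to -0.03 for activators and -0.20 to -0.12 for assembly factors. With the filter at the median gene, the immunoproteasome subunits were not tested.

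Uncalled members near 0 changed sign in some settings. After the second quantile normalization PSMA1 was at 0.03, PSMB6 and PSMD8 at 0.02, PSMC1, PSMC2 and PSMC3 at 0.01 and PSMB3, PSMG2 and POMP at 0.00. After centring PSMB6 and PSMD8 were at 0.02, PSMA1, PSMC1 and PSMC2 at 0.01 and PSMB3, PSMC3, PSMG2 and POMP at 0.00. With array weights PSMC6 was at 0.05, PSMC1 at 0.03, PSMA1, PSMB6 and PSMD8 at 0.01, PSMA3 at 0.00 and PSMA8 at -0.02. When 1 array was left out, PSMA1 ran from -0.04 to 0.01, PSMA8 from -0.06 to 0.06, PSMB1 from -0.05 to 0.07, PSMB11 from -0.05 to 0.17, PSMB4 from -0.00 to 0.06, PSMB6 from -0.02 to 0.02, PSMC1 from -0.06 to 0.03, PSMC2 from -0.04 to 0.02, PSMC3 from -0.05 to 0.01, PSMC4 from -0.00 to 0.04, PSMC6 from -0.16 to 0.01, PSMD4 from -0.00 to 0.08, PSMD8 from -0.03 to 0.01 and PSMF1 from -0.01 to 0.05.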
